A study of Mus musculus with 75 samples.

Results

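Expression of 10 transcription factors that are known from the development and identity of lung cell lineages was followed in BLEO-IPF mice. These were *Nkx2-1*, *Foxa1*, *Foxa2*, *Cebpa*, *Gata6*, *Sox4*, *Sox9*, *Tbx2*, *Tbx4* and *Foxf1*. They were chosen by name, with earlier results of these data known. They are the rows of the count table with these gene symbols among 55536 genes, and all 10 passed the filter on low counts. Poly(A) RNA of the right inferior lobe had been sequenced in 75 male C57BL/6JRj mice, with 1 library for each mouse and after the lungs had been rinsed for lavage fluid. Bleomycin (BLEO) breaks DNA and damages alveolar cells, and 1 dose into the trachea was given to mice of 12 to 14 weeks of age to make the BLEO-IPF groups. They were examined on day 7 (n = 10), days 14, 21, 28 and 35 (n = 12 each) and day 42 (n = 7) after BLEO administration. They were compared with 10 control mice (CTRL) of the same strain and sex without bleomycin. The sample labels call these saline mice, and the methods of the study call them untreated. The age given is that at bleomycin administration, and when the control mice were sampled is not given in the sources used here. Mice of later days were older at sampling. Deaths of BLEO-IPF mice were reported by the study, so later days hold survivors. Effects of day, age and survival cannot be told apart here. The BLEO-IPF groups were limited to mice that had lost 5 to 17% of their body weight on day 6, so animals with milder or more severe loss are not represented.

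A lineage transcription factor binds DNA and keeps the genes of a cell type switched on, and several such factors usually act together on the same genes. In the lung, NKX2-1 marks the respiratory epithelium from its first appearance and maintains surfactant genes in alveolar type 2 (AT2) cells and the identity of type 1 (AT1) cells. The forkhead factors FOXA1 and FOXA2 open chromatin in airway and alveolar epithelium, C/EBPα acts in the maturation of AT2 cells, and GATA6 acts in epithelial differentiation and is also present in mesenchyme. SOX9 marks the distal epithelial progenitors of the embryonic lung and is also a factor of cartilage, and SOX4 is a widely expressed factor of immature and injured cells. TBX2 and TBX4 are T-box factors of the lung mesenchyme, and FOXF1 is needed for lung endothelium and mesenchyme.

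To show the regulatory sequence of the epithelial factors described first, the bases that lie 250 to 15 bases before the RefSeq start of *Nkx2-1*, *Foxa1* and *Foxa2* are given on the GRCm38.p6 build, each read 5′ to 3′ on the minus strand on which the gene lies. They cover chr12:56536923-56537158 for *Nkx2-1*, chr12:57546126-57546361 for *Foxa1* and chr2:148046984-148047219 for *Foxa2*. In the Ensembl annotation the *Nkx2-1* window lies within the antisense gene *Gm26973*, and the *Foxa1* window lies in an intron of an alternative *Foxa1* transcript. RefSeq windows of this kind were found for 6 of the 10 members, and the most upstream of 3 was taken for *Foxa2*. Capitals mark every match, on either strand, to 8 short motifs.
Nkx2-1: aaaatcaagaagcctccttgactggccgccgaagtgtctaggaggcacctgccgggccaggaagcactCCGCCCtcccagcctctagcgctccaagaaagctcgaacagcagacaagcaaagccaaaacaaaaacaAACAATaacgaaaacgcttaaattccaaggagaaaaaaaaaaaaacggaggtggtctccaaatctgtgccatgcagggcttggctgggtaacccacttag
Foxa1: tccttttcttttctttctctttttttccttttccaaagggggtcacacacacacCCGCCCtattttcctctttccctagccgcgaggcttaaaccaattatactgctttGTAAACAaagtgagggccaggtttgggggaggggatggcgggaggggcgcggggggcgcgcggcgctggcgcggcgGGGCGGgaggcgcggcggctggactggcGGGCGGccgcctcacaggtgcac
Foxa2: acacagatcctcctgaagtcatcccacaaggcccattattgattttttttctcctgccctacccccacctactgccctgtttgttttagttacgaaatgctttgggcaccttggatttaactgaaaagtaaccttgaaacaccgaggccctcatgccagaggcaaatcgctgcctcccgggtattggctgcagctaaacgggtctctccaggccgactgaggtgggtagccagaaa
The share of all 32851 RefSeq windows of the same 236 bases that hold a motif is given beside it, and no match overlapped another. The motif named after FOXA factors, TNTTTAC, was present in 10.4% of all windows, and the *Foxa1* window held 1, read as GTAAACA at 141 to 135 bases before the start. The GC box, spelled GGGCGG, was present in 30.8% of windows, 3 times in that of *Foxa1* and 1 time in that of *Nkx2-1*. A motif named after SOX factors, AACAAT, was present in 9.13% of windows and stood 1 time in that of *Nkx2-1*, 114 to 109 bases before the start. The *Foxa2* window held none of the 8 motifs. Those with no match in any of the 3 windows were named after NKX2-1 (CTCAAG, present in 12.8% of all windows), after C/EBP factors (TTGCNNAA, present in 9.21% of windows) and after GATA factors (AGATAA, present in 9.66% of windows). The T-box motif (GGTGTGA, present in 3.14% of windows) and the TATA box (TATAAA, present in 11.9% of windows) had none either.

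Total counts per library ranged from 9240291 to 14665247. Markers of lung cells were abundant in every library, with a summed level of 10 markers of AT2 cells of 24389 to 29765 CPM (counts scaled to library size) in CTRL and at least 7164 CPM in every BLEO-IPF mouse. In 2 libraries of day 28, replicates 10 and 11, the summed level of cardiac muscle markers was 16.5 and 5.89 times the median of all libraries, and in replicate 10 that of skeletal muscle markers was 339 times the median. Results that changed without these 2 libraries are given with and without them. In the annotation of Ensembl 96, 5 of the members overlap a gene on the opposite strand, and whether counting used the strand is not given in the sources used here. The counts of such genes were at most 5.63% of the member's own counts (*Gata6*).

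In normal lung the 10 factors covered a wide range of levels. Per kilobase of exon, the CTRL mean was highest for *Foxf1*, at 105 ± 15.9 CPM per kilobase (SD, n = 10), and *Tbx2*, at 93.5 ± 9.68. *Nkx2-1* (60.4) and *Cebpa* (55.7) followed, then *Tbx4* (31.6), *Foxa2* (20.2), *Sox4* (16.7), *Foxa1* (14.5) and *Gata6* (7.68). *Sox9* was near the floor of detection, at 0.104 ± 0.0571 CPM per kilobase and 2 to 8 counts per library. All later levels of single genes are CPM after TMM normalisation, for comparison of 1 gene between groups. Summed levels of marker lists are CPM scaled to library size alone.

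Each day was compared with CTRL to ask how these factors changed as lung injury and fibrosis developed and regressed. On day 14, 9 of the 10 members differed from CTRL, 7 of them lower and 2 (*Sox4* and *Sox9*) higher, with 62.4% of the 16221 genes tested (29.9% lower and 32.4% higher) called at an adjusted p under 0.05 (edgeR's quasi-likelihood F test with Benjamini-Hochberg adjustment over all genes tested, as for every adjusted p of a log2 fold change below). On day 7, 4 members were called (background 45.8%), day 21 had 7 (54.2%), day 28 had 6 (43.3%), day 35 had 5 (29.9%) and day 42 had 4 (24.7%). Without the 2 libraries with muscle markers, 7 members were called on day 7. The share of all genes called in that fit is not given here. With 10 members, these counts are a description. The median log2 fold change of the members was -0.27 on day 14, against 0.01 over all genes tested, and 0.03 on day 42, against 0.01. *Foxa1* was the only member lower on all 6 days (5.31% of all genes were), and 0 members were higher on all 6 days (8.33% of all genes). In RNA from whole tissue, fewer cells of a type and less RNA per cell cannot be told apart.

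**Figure D1:**
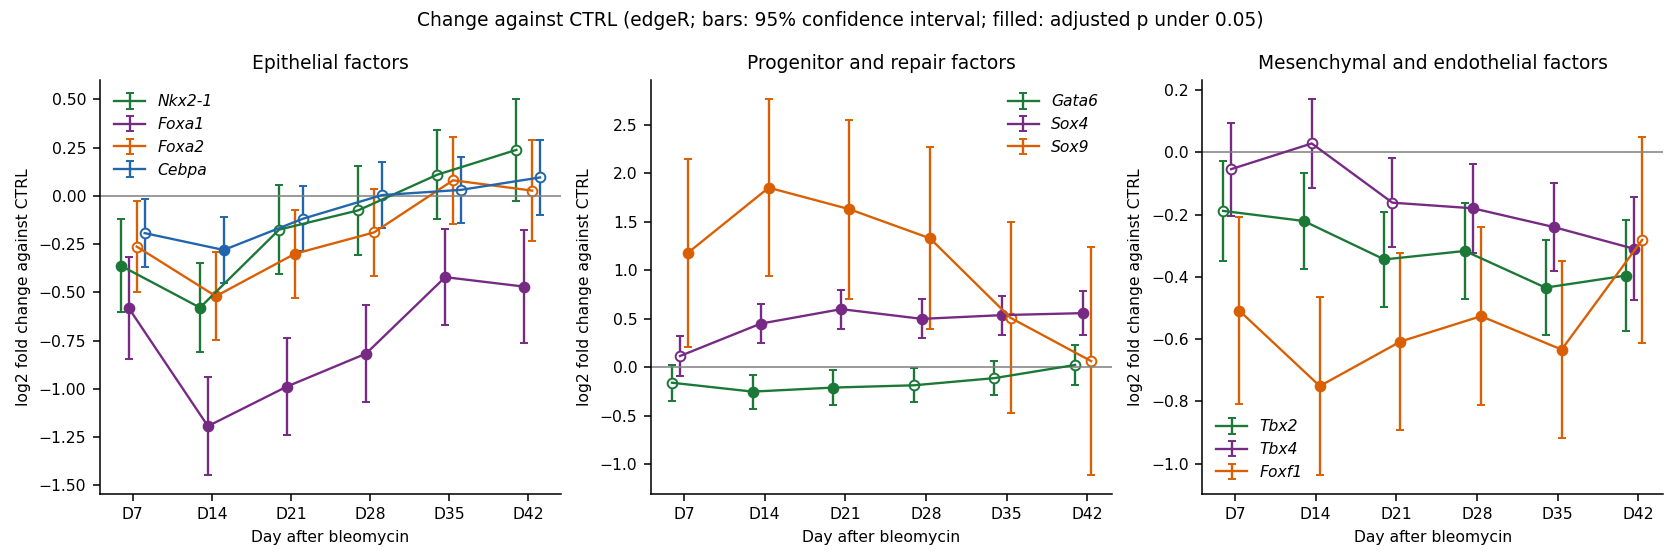
Log2 fold change of each member against CTRL (y axis) on the 6 days after BLEO administration (x axis), for the epithelial, the progenitor and repair, and the mesenchymal and endothelial factors. Bars are approximate 95% confidence intervals derived from the edgeR fit. Filled points had an adjusted p under 0.05. *Foxa1* stayed below CTRL throughout, while *Nkx2-1*, *Foxa2* and *Cebpa* were lowest on day 14 and were not called on days 28, 35 and 42.

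The epithelial factors were lower on day 14, and from day 28 on only *Foxa1* still was. *Nkx2-1* (chr12:56531958-56536908, minus strand) had a lowest, median and highest level of 154, 170.1 and 190.2 CPM in CTRL, 120.3, 131 and 153 CPM on day 7 and 85.8, 104 and 167 CPM on day 14. Every mouse of day 7 and 11 of 12 mice of day 14 lay below all CTRL mice. Its log2 fold change was -0.36 ± 0.12 (SE; adjusted p = 0.0125) on day 7 and -0.58 ± 0.12 (SE; adjusted p = 1.96e-05) on day 14, and the level fell by 33.1%. On day 21 and day 28 the mice spread out, from 85.1 to 189 and from 92.3 to 212 CPM. On each of these days 4 of 12 mice were below all CTRL mice, on day 28 a further 3 were above all of them, and neither mean was called, with a log2 fold change of -0.17 ± 0.12 (SE; adjusted p = 0.204) and -0.07 ± 0.12 (SE; adjusted p = 0.637). On day 35, 6 of 12 mice were above all CTRL mice (0.11 ± 0.12 SE, adjusted p = 0.514). On day 42 the level was 182, 198 and 225 CPM, and 5 of 7 mice were above all CTRL mice. The log2 fold change of 0.24 ± 0.13 (SE; adjusted p = 0.189) did not pass the test, but it did in a fit of CTRL and day 42 alone (0.25, adjusted p = 0.00116).

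*Foxa1* and *Foxa2*, which encode related forkhead factors, followed different courses. *Foxa1* (chr12:57540628-57546916, minus strand) had a lowest, median and highest level of 44.98, 48.02 and 52.2 CPM in CTRL and 13.9, 18.8 and 33.9 CPM on day 14, and still 30.1, 33.3 and 39.8 CPM on day 42. No BLEO-IPF mouse of any day overlapped with CTRL. From the first to the last day, groups without overlap were found for 11.2%, 15.6%, 11.7%, 3.44%, 3.77% and 7.58% of all genes, and among the members they were also found for *Nkx2-1* on day 7 and *Tbx4* on day 42. For *Foxa1* the log2 fold change was -0.58 ± 0.13 (SE; adjusted p = 2.70e-04) on day 7, and reached -1.19 ± 0.13 (SE; adjusted p = 3.04e-12) on day 14. A week later it was -0.99 ± 0.13 (SE; adjusted p = 1.61e-09), by day 28 it was -0.82 ± 0.13 (SE; adjusted p = 5.06e-07), and on days 35 and 42 it was -0.42 ± 0.13 (SE; adjusted p = 0.00827) and -0.47 ± 0.15 (SE; adjusted p = 0.0155). Against CTRL, its level fell by 56.3% on day 14 and fell by 27.8% on day 42.

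*Foxa2* (chr2:148042877-148046969, minus strand) had a lowest, median and highest level of 43.3, 47.9 and 53.1 CPM in CTRL, 20.1, 33.4 and 47.8 CPM on day 14 and 40.6, 48.6 and 57.3 CPM on day 42. On day 14, 11 of 12 mice were below all CTRL mice, and on day 42 the groups overlapped. Against CTRL, the log2 fold change was -0.52 ± 0.12 (SE; adjusted p = 9.06e-05) on day 14, -0.30 ± 0.12 (SE; adjusted p = 0.0242) on day 21 and 0.03 ± 0.13 (SE; adjusted p = 0.906) on day 42. The ratio of *Foxa1* to *Foxa2*, taken within each library and so independent of the scaling between libraries, was lower than in CTRL on all 6 days. The difference of log2 ratios was -0.69 ± 0.07 (SE; adjusted p = 2.10e-04) on day 14, where all 12 mice were below all CTRL mice, by a two-sided permutation test adjusted over the 42 ratio tests. On day 42 it was -0.50 ± 0.10 (SE; adjusted p = 0.00144) by an exact permutation test, with 6 of 7 mice below all CTRL mice.

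*Cebpa* (chr7:35119293-35121928, plus strand), which is also present in myeloid cells, was called on 1 day. It had a lowest, median and highest level of 122, 148 and 162 CPM in CTRL and 98.4, 123 and 149.7 CPM on day 14, where 5 of 12 mice were below all CTRL mice. On that day the log2 fold change was -0.28 ± 0.09 (SE; adjusted p = 0.0039), and the level fell by 17.6%. From day 21 to day 42 the log2 fold change lay between -0.12 and 0.10, with no call. Relative to *Nkx2-1* in the same library, *Cebpa* was higher on day 14 by 0.33 ± 0.12 (SE; adjusted p = 0.0391) in a permutation test, and the ratio was not called on the other 5 days.

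Lists of epithelial cell markers moved in different directions. Of 10 AT2 markers, 3 were higher and 0 lower on day 7, when *Nkx2-1* and *Foxa1* were already lower, 5 were lower on day 14 and 4 were higher on day 42, and their summed level ranged from 7164 to 26440.3 CPM on day 14 against 24389 to 29765 CPM in CTRL. Of 7 ciliated cell markers, 7 were lower on each of days 14, 21 and 28 and 2 on day 42, and the summed level was 97.3 to 295 CPM on day 14 and 275 to 417 CPM on day 42 against 441 to 597 CPM in CTRL. Of 10 AT1 markers, 4 were higher and 4 lower on day 14. Of 8 markers of transitional alveolar epithelial cells, 8 were higher on day 7 and 7 on day 14, with a summed level of 1149 to 1714 CPM on day 14 against 759 to 966 CPM in CTRL. Of 6 club cell markers, 4 were lower on each of days 14, 21 and 28. The general epithelial genes *Epcam*, *Cdh1* and *Cldn7*, which encode adhesion and junction proteins, summed to 294 to 494 CPM on day 14 and 395 to 513 CPM in CTRL. How far these shifts in cell markers account for the levels of the factors was not tested.

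Relative to *Epcam*, *Cdh1* and *Cldn7* in the same library, *Nkx2-1* was lower on days 7 and 14, with a log2 difference from CTRL of -0.57 ± 0.08 (SE; adjusted p = 4.20e-04) and -0.44 ± 0.08 (SE; adjusted p = 4.90e-04) in permutation tests, with 10 of 10 and 10 of 12 mice below all CTRL mice. From day 21 on the difference was not called, and on day 42 it was 0.01 ± 0.08 (SE; adjusted p = 0.878) by an exact permutation test. *Foxa1* relative to the same 3 genes was lower on all 6 days, from -1.07 ± 0.09 (SE; adjusted p = 7.20e-05) on day 14 to -0.62 ± 0.08 (SE; adjusted p = 7.20e-05) on day 35 in permutation tests. *Foxa2* relative to them was lower on days 7, 14, 21 and 42, with a difference on day 42 of -0.20 ± 0.09 (SE; adjusted p = 0.0279) in an exact permutation test. The reference genes moved as well. *Epcam* was higher on day 7 (log2 fold change 0.33 ± 0.08 SE, adjusted p = 4.90e-04), day 35 (0.25) and day 42 (0.34 ± 0.09 SE, adjusted p = 0.00239). *Cdh1* and *Cldn7* were not called on these days, and both were lower on day 14 (-0.21 and -0.23). On day 42 the level of *Foxa2* itself was not called (0.03). Relative to the 7 ciliated cell markers, *Foxa1* differed from CTRL on day 35 alone (-0.19 ± 0.06 SE, adjusted p = 0.013 in a permutation test), and on day 42 the difference was 0.06 ± 0.07 (SE; adjusted p = 0.441) in an exact permutation test. These 3 ratios of *Foxa1* and *Foxa2* to markers were chosen after the levels had been seen and were adjusted over their own 18 tests.

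**Figure D2:**
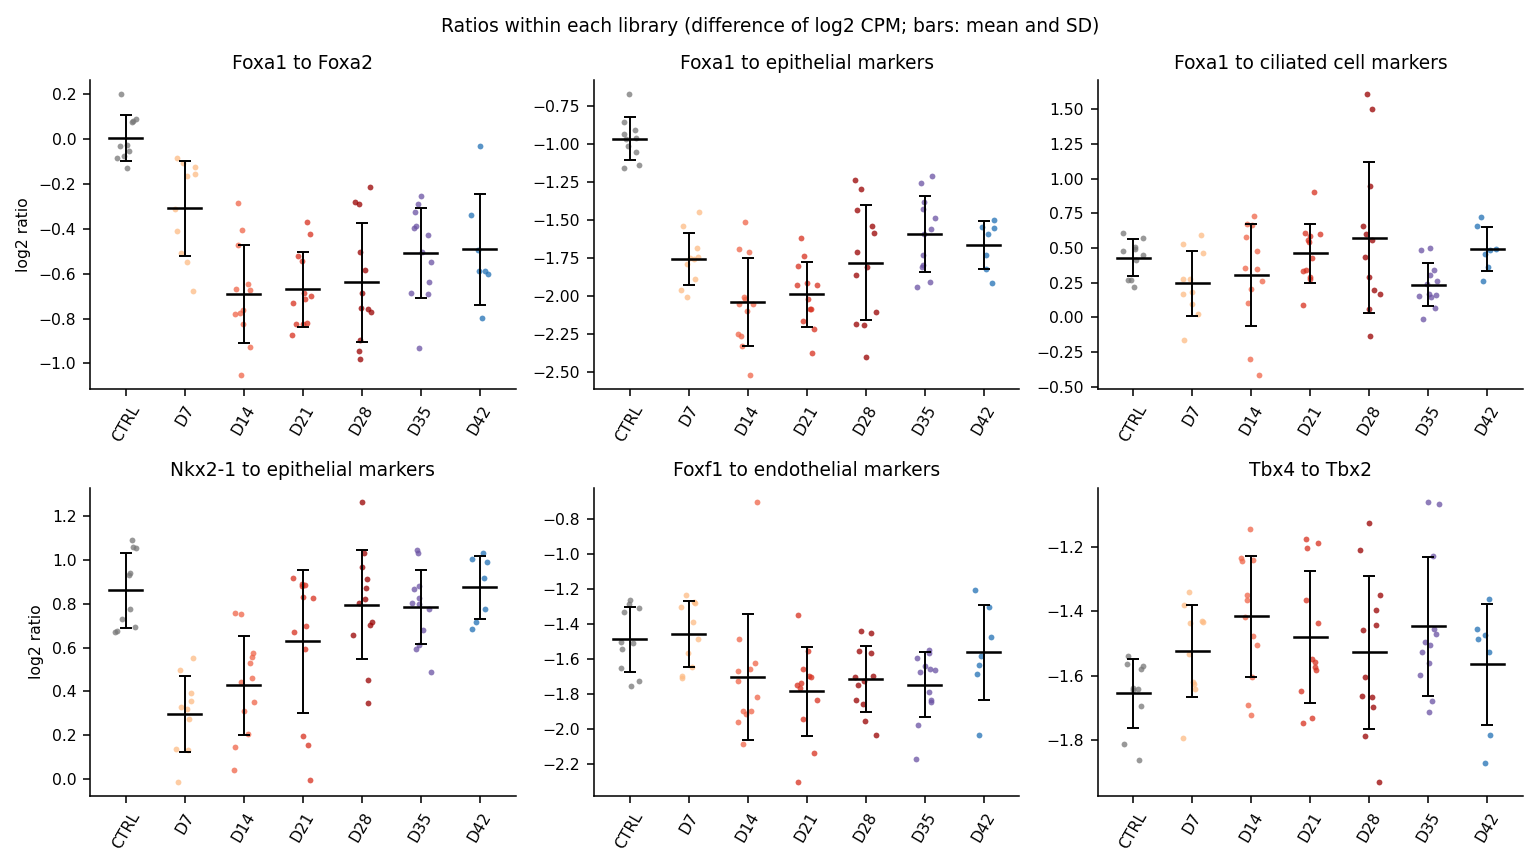
Log2 ratios within each library (y axes, difference of log2 CPM) by group (x axes, CTRL and days 7 to 42), where each point is 1 mouse and bars show the mean and SD. *Foxa1* relative to *Foxa2* and to epithelial markers was lower than in CTRL on all 6 days, whereas *Foxa1* relative to ciliated cell markers overlapped with CTRL on every day.

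Among the factors of progenitors and repair, *Sox4* and *Sox9* rose and *Gata6* fell slightly. *Gata6* had a lowest, median and highest level of 44.2, 50.6 and 56.2 CPM in CTRL, 28.7, 43.5 and 52.1 CPM on day 14 and 43.98, 49.6 and 58.7 CPM on day 42. The groups overlapped on every day, although 5 or 6 mice of each of days 7, 14, 21 and 28 were below all CTRL mice. It was called on day 14 (-0.25 ± 0.09 SE, adjusted p = 0.0123) and day 21 (-0.21 ± 0.09 SE, adjusted p = 0.0422), where it fell by 16.1% and fell by 13.6%. On day 28 it was not called (-0.19 ± 0.09 SE, adjusted p = 0.0848), but it was without the 2 libraries with muscle markers (-0.24, adjusted p = 0.0338), and the call of day 21 was lost without a filter on low counts (adjusted p = 0.0981).

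*Sox4* (chr13:28948919-28953713, minus strand) was higher from day 14 on, and still was on day 42. Its lowest, median and highest level was 65.4, 75.9 and 108 CPM in CTRL, 61.8, 82.8 and 128 CPM on day 7 and 70.2, 110.4 and 142 CPM on day 14. On day 7 the log2 fold change was 0.12 ± 0.11 (SE; adjusted p = 0.385), and on day 14 it was 0.45 ± 0.10 (SE; adjusted p = 1.18e-04). The level differed between day 7 and day 14 (adjusted p = 0.0162), the only neighbouring days on which it did. On days 21, 28, 35 and 42 the level was 95.4, 116 and 159.9 CPM, 83.9, 112 and 147 CPM, 96.4, 111 and 146 CPM and 101, 122 and 133 CPM. Every mouse of these 4 days was above the median of CTRL, and 9 of 12, 7 of 12, 8 of 12 and 5 of 7 were above all CTRL mice. These days had log2 fold changes between 0.50 on day 28 and 0.60 on day 21, and that of day 42 was 0.56 ± 0.12 (SE; adjusted p = 2.11e-04), a rise of 47.2%.

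*Sox9* (chr11:112782224-112787760, plus strand) rose from a very low level, and its values rest on few reads. Its lowest, median and highest count was 2, 4.5 and 8 per library in CTRL, 1, 14 and 17 on day 7 and 4, 13.5 and 44 on day 14. As levels these were 0.136, 0.410 and 0.790 CPM in CTRL and 0.306, 1.18 and 4.37 CPM on day 14, where 8 of 12 mice were above all CTRL mice. The log2 fold change was 1.18 ± 0.50 (SE; adjusted p = 0.044) on day 7, 1.85 ± 0.47 (SE; adjusted p = 4.59e-04) on day 14 and 1.63 ± 0.47 (SE; adjusted p = 0.00261) on day 21. On day 28 it was 1.33 ± 0.48 (SE; adjusted p = 0.0198), and on day 42 it was 0.06 ± 0.60 (SE; adjusted p = 0.955), with 0 counts in 1 mouse, which allows up to 3 counts in that library. The call of day 7 was lost without a filter on low counts (adjusted p = 0.0833). Relative to *Nkx2-1* in the same library, *Sox9* was higher on days 7, 14 and 21, on day 14 by 1.95 ± 0.39 (SE; adjusted p = 7.35e-04) in a permutation test. Of 7 markers of Schwann cells and of cartilage, a tissue that expresses *Sox9*, 4 were tested and 2 were higher and 2 lower on day 14, and the summed level was 52.9 to 118 CPM against 28.5 to 43.03 CPM in CTRL. The part of these cells in the level of *Sox9* was not tested.

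**Figure D3:**
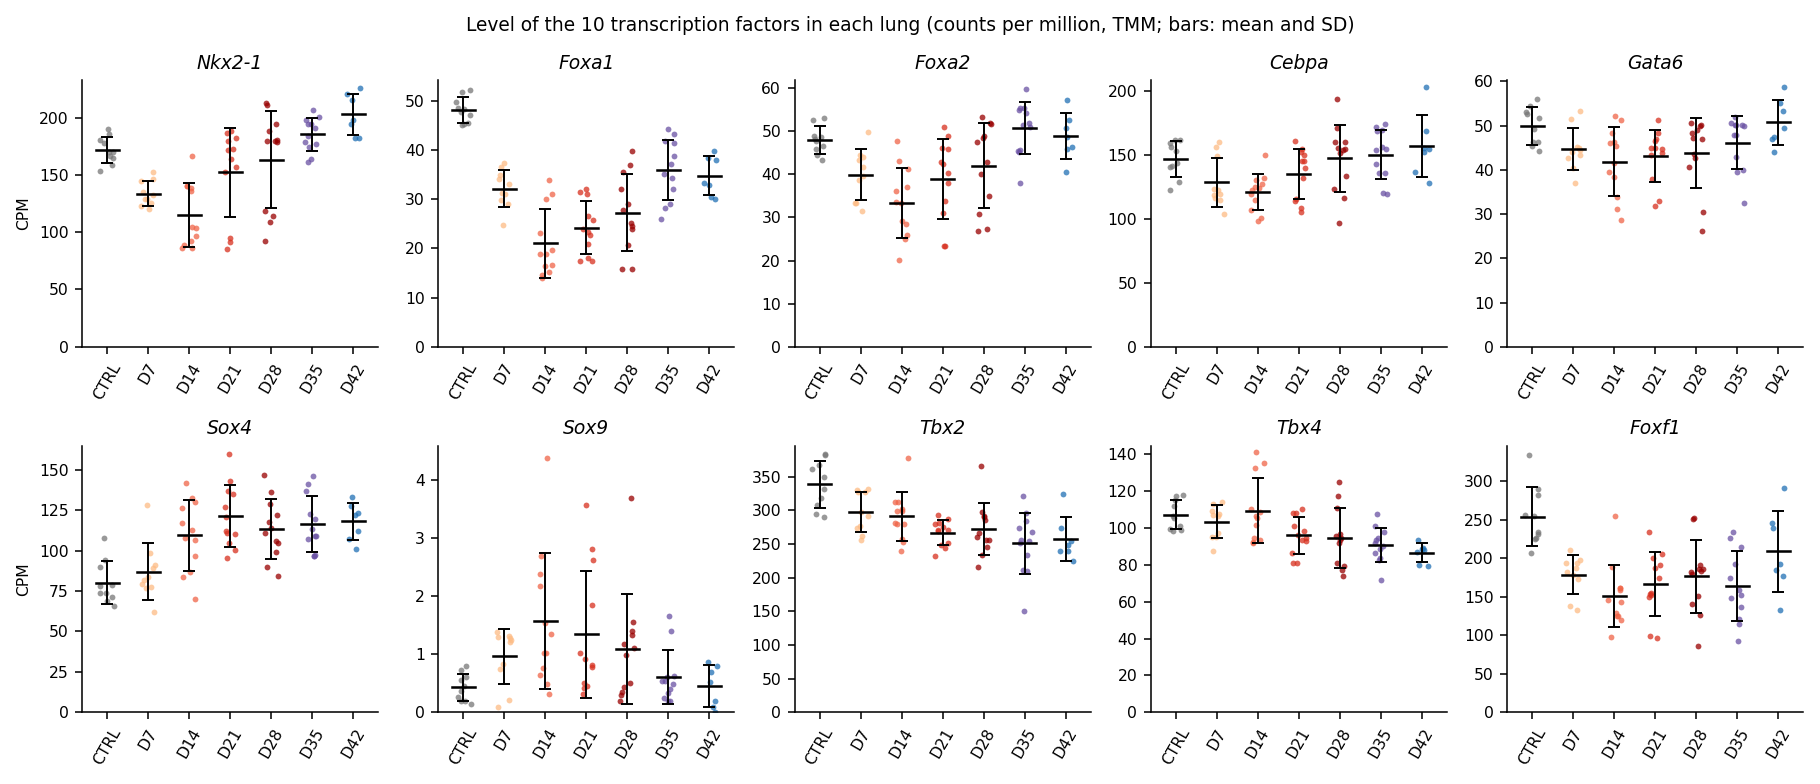
Level of each member (y axes, CPM with TMM scaling, starting at 0) in CTRL and on days 7 to 42 after BLEO administration (x axes), where each point is 1 mouse and bars show the mean and SD. *Foxa1* had no overlap with CTRL on any day, the mice of days 21 and 28 were widely spread for *Nkx2-1*, and *Sox9* reached 4.37 CPM in 1 mouse of day 14.

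The mesenchymal and endothelial factors were lower as well, *Foxf1* from day 7, *Tbx2* from day 14 and *Tbx4* from day 28. *Tbx2*, a T-box factor that keeps lung mesenchymal cells growing in the embryo, had a lowest, median and highest level of 291, 341 and 385 CPM in CTRL, 240.2, 290.0 and 377 CPM on day 14, 151, 255 and 322 CPM on day 35 and 224, 249 and 324 CPM on day 42. The number of mice below all CTRL mice went from 4 of 10 on day 7 and 6 of 12 on day 14 to 11 of 12 a week later, and day 42 had 6 of 7. The log2 fold change was -0.19 ± 0.08 (SE; adjusted p = 0.0531) on day 7, -0.22 ± 0.08 (SE; adjusted p = 0.012) on day 14 and -0.34 ± 0.08 (SE; adjusted p = 1.60e-04) on day 21. On day 35 it was -0.43 ± 0.08 (SE; adjusted p = 1.16e-05) and on day 42 it was -0.40 ± 0.09 (SE; adjusted p = 8.12e-04), and the level fell by 23.97%. The difference of day 7 passed the threshold in 6 alternative analyses, among them DESeq2 (adjusted p = 0.0459).

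*Tbx4* lies on the same chromosome (chr11:85886422-85916097, against chr11:85832551-85841948 for *Tbx2*, both on the plus strand) and is known from lung fibroblasts. Its lowest, median and highest level was 98.2, 106 and 118 CPM in CTRL, 91.7, 106 and 141 CPM on day 14, 71.997, 91.01 and 108 CPM on day 35 and 79.2, 88.4 and 93.5 CPM on day 42. On day 14 the mice fell on both sides of CTRL, and on day 42 all 7 mice were below all CTRL mice. Its log2 fold change was 0.03 ± 0.07 (SE; adjusted p = 0.746) on day 14, -0.16 ± 0.07 (SE; adjusted p = 0.0541) on day 21 and -0.18 ± 0.07 (SE; adjusted p = 0.0392) on day 28. It was -0.24 ± 0.07 (SE; adjusted p = 0.00844) on day 35 and -0.31 ± 0.08 (SE; adjusted p = 0.0048) on day 42. Without the 2 libraries with muscle markers the call of day 28 was lost (adjusted p = 0.0695) and that of day 21 was gained (adjusted p = 0.0256). The ratio of *Tbx4* to *Tbx2* was higher than in CTRL on days 14, 21 and 35, on day 14 by 0.24 ± 0.06 (SE; adjusted p = 0.00861) in a permutation test, and it was not called on day 42 (0.09 ± 0.08 SE, adjusted p = 0.299, exact permutation test).

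*Foxf1* (chr8:121084386-121088144, plus strand) fell on day 7 and was still lower on day 35. It had a lowest, median and highest level of 206, 244 and 334 CPM in CTRL, 133, 184 and 211 CPM on day 7, 97.9, 145 and 254 CPM on day 14 and 132, 192 and 291 CPM on day 42. On day 14, 11 of 12 mice were below all CTRL mice, and the remaining mouse, replicate 8, had the highest level of the group and lay above the median of CTRL. On day 42, 4 of 7 mice were below all CTRL mice. The log2 fold change was -0.51 ± 0.15 (SE; adjusted p = 0.00476) on day 7, -0.75 ± 0.15 (SE; adjusted p = 9.33e-06) on day 14 and -0.63 ± 0.15 (SE; adjusted p = 4.75e-04) on day 35. On day 42 it was -0.28 ± 0.17 (SE; adjusted p = 0.224).

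Many markers of endothelium and of alveolar fibroblasts were lower on the same days. Of 10 endothelial markers, 7 were lower on day 7, 8 on day 14 and 4 on day 42, and their summed level was 2167 to 4009 CPM on day 14 against 4246 to 5349 CPM in CTRL. Of 8 alveolar fibroblast markers, 5 were lower and 2 higher on day 14, and 4 were lower on day 42. The 6 genes of matrix-producing fibroblasts were all higher on day 14, with a summed level of 5887 to 21156 CPM against 1787 to 2471 CPM in CTRL, and 8 of 8 markers of monocyte-derived macrophages were higher, with 1639 to 8406 CPM against 420.2 to 498 CPM. Relative to the endothelial genes *Pecam1*, *Cdh5* and *Tie1* in the same library, *Foxf1* differed by 0.03 ± 0.08 (SE; adjusted p = 0.73) on day 7, which was not called, and was lower on days 21, 28 and 35, with a difference on day 21 of -0.30 ± 0.09 (SE; adjusted p = 0.0134), in permutation tests. Relative to the fibroblast genes *Pdgfra*, *Pdgfrb* and *Dcn*, *Tbx4* was lower on days 14, 28 and 35, with a difference on day 35 of -0.30 ± 0.07 (SE; adjusted p = 0.0047) in a permutation test. On day 14 *Tbx4* itself was not called (log2 fold change 0.03), and neither was *Dcn* (-0.04). *Pdgfra* (0.38 ± 0.13 SE, adjusted p = 0.00711) and *Pdgfrb* (0.55 ± 0.12 SE, adjusted p = 6.27e-05) were higher on that day. *Pdgfrb* was also higher on day 28 (0.42 ± 0.12 SE, adjusted p = 0.00295), and none of these reference genes was called on day 35. The part of these cell markers in the levels of *Tbx2*, *Tbx4* and *Foxf1* was not tested beyond these ratios.

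Day 42 was compared with day 14 to ask which factors had moved back, with no control mice in the contrast. Mice of day 42 were also older at sampling and had survived longer. The part of age and survival in this contrast was not tested. Of the 10 members, 8 differed, 6 of them higher and 2 lower on day 42, with 34% of all genes called, 15.2% higher and 18.8% lower. The rise was 0.82 ± 0.13 (SE; adjusted p = 1.10e-06) on the log2 scale for *Nkx2-1*, 0.72 ± 0.14 (SE; adjusted p = 6.29e-05) for *Foxa1* and 0.55 ± 0.13 (SE; adjusted p = 5.94e-04) for *Foxa2*. It was 0.38 ± 0.10 (SE; adjusted p = 0.0015) for *Cebpa*, 0.28 ± 0.10 (SE; adjusted p = 0.026) for *Gata6* and 0.47 ± 0.16 (SE; adjusted p = 0.0183) for *Foxf1*. *Sox9* fell, with a log2 difference of -1.79 ± 0.53 (SE; adjusted p = 0.00626), and so did *Tbx4*, with -0.34 ± 0.08 (SE; adjusted p = 9.10e-04). For *Tbx4* the mean moved away from that of CTRL, and for the other 7 it lay closer to CTRL than on day 14. *Sox4* (0.11 ± 0.11 SE, adjusted p = 0.472) and *Tbx2* (-0.18 ± 0.09 SE, adjusted p = 0.112) were not called, and both differed from CTRL on day 42.

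Among the 6 BLEO-IPF days, 8 of 10 members varied in a single F test (48.3% of all genes), with adjusted p-values from 4.97e-07 for *Nkx2-1* to 0.0383 for *Tbx2*. *Gata6* (adjusted p = 0.179) and *Foxf1* (adjusted p = 0.159) did not pass it. Between neighbouring days the members moved in small steps. From day 7 to day 14, *Foxa1* fell by 0.61 on the log2 scale (adjusted p = 6.64e-04) and *Sox4* rose by 0.33, and these 2 were the members called (17% of all genes). Between later neighbouring days 0 members were called by edgeR, with 1.03%, 0.727%, 1.27% and 0% of all genes called. At an unadjusted p under 0.05 these steps held 2, 0, 2 and 1 members, and DESeq2 called 1 between days 14 and 21 and 0 in the later steps. The shares of all genes in these settings are not given here. When the 7 groups were ordered by mean for each member, 2 of the 60 pairs of neighbours differed, *Foxa1* between day 35 and CTRL and *Sox4* between day 7 and day 14. The order from lowest to highest mean was day 14, 7, 21, 28, CTRL, day 35 and day 42 for *Nkx2-1*, and day 42, 35, 28, 21, 7, CTRL and day 14 for *Tbx4*.

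The mice of 1 day differed among themselves, and more so for some members than for most genes. The coefficient of variation of *Nkx2-1* was 6.75% in CTRL and 8.12% on day 7, between 23.99% and 26.01% on days 14, 21 and 28, and 7.84% and 8.83% on days 35 and 42. The median over the 10729 genes with a mean above 10 CPM was 9.17% in CTRL, 14.9% on day 14, 13.5% on day 28 and 9.65% on day 42. *Foxa1* went from 5.36% in CTRL to 33.1% on day 14 and *Foxf1* from 15.2% to 26.9%, whereas *Tbx2* had 10.3% and 12.3% and *Cebpa* 9.48% and 11.9%. On day 21 the levels of *Nkx2-1* fell into separate ranges, 85.1 to 94.7 CPM in 3 mice and 152 to 189 CPM in the other 9.

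To describe which members varied together, the mean of each group was subtracted from log2 CPM and the deviations of the 75 mice were correlated, for 165 relations among members and with 12 lists of cell markers. Both measures of a pair come from the same library and lobe. *Nkx2-1* and *Foxa2* had r = 0.81 (Spearman's rho = 0.74), and *Nkx2-1* and the mean of 10 AT2 markers had r = 0.83 (Spearman's rho = 0.79). *Gata6* and 10 AT1 markers had r = 0.78 (Spearman's rho = 0.61), and *Foxf1* and 10 endothelial markers had r = 0.86 (Spearman's rho = 0.83). *Foxa1* and 7 ciliated cell markers had r = 0.73 (Spearman's rho = 0.73), and *Sox9* and the 6 matrix genes had r = 0.73 (Spearman's rho = 0.73). Each of these 6 relations had a two-sided permutation p of 1e-05 for Pearson's r and for Spearman's rho, the smallest that 100000 permutations within groups can give (adjusted p = 4.02e-05 and 4.85e-05 over the 165 relations). Without the 2 mice farthest from the median of the second measure, r lay between 0.70 and 0.82. These 6 relations were picked from the 165, and other pairs gave values of similar size. *Foxa1* had r = 0.73 with AT2 markers, 0.74 with alveolar fibroblast markers and -0.75 with the 6 matrix genes. With the matrix genes, *Nkx2-1* had r = -0.69, *Foxa2* -0.74, *Gata6* -0.69 and *Foxf1* -0.68. *Gata6* also had r = 0.72 with endothelial markers.

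In the 39 mice of CTRL and days 7, 35 and 42, r was 0.27 for *Nkx2-1* and *Foxa2*, 0.03 for *Nkx2-1* and *Foxa1*, and 0.52 for *Nkx2-1* and AT2 markers. *Foxa1* and *Foxa2* had r = 0.76 over all mice and r = 0.41 in these 39. The days left out were those on which *Nkx2-1* was most widely spread. For *Foxf1* and endothelial markers r was 0.90 in the same 39 mice, and within single groups it ranged from 0.58 to 0.97, positive in 7 of 7. For *Foxa1* and ciliated cell markers it was 0.67, and within groups from 0.01 to 0.88. *Sox4*, by contrast, had r = 0.24 and rho = 0.22 with AT2 markers (adjusted permutation p = 0.11 and 0.119). *Tbx2* and *Tbx4* had r = 0.42 (Spearman's rho = 0.36) (adjusted permutation p = 0.00105 and 0.00478).

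**Figure D4:**
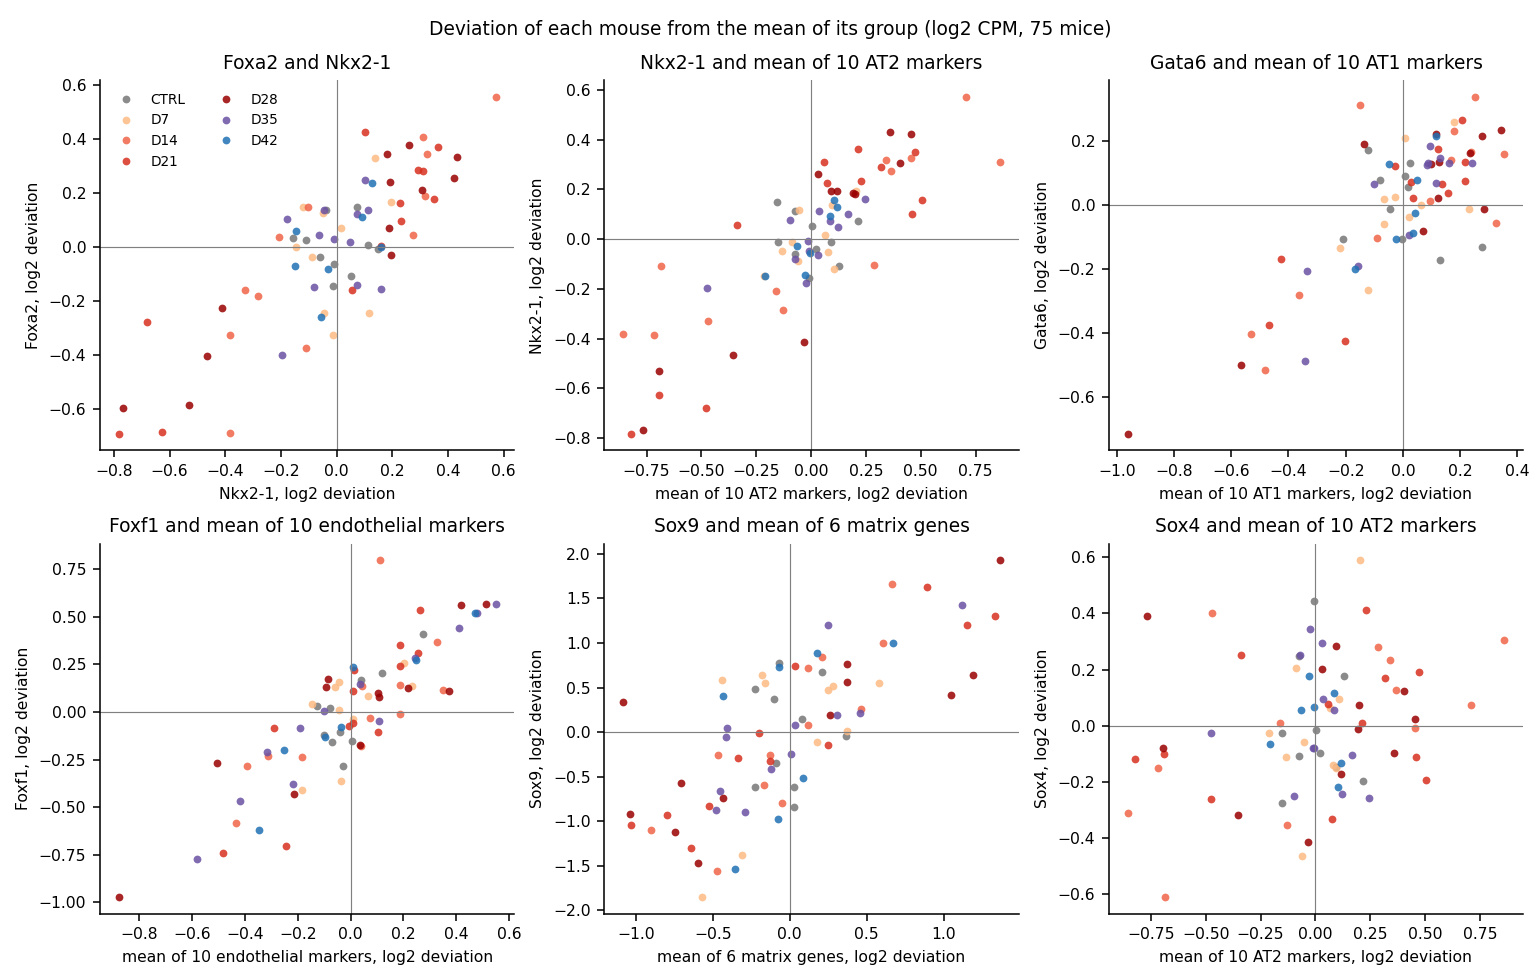
Deviation of each of 75 mice from the mean of its group in log2 CPM, for a member (y axes) and a second gene or marker mean (x axes), colored by group. *Foxf1* and endothelial markers rose together over the 75 mice (r = 0.86), with a positive relation of varying strength within every group. The low values of *Foxa2* and *Nkx2-1* came from days 14 to 28, and *Sox4* and AT2 markers showed little relation (r = 0.24).

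The genes most like each member were found by the same deviations over the 75 mice, as a description. For *Nkx2-1* they were *Irx2* at r = 0.87, *Irx3* at r = 0.87 and *Slc44a3* at r = 0.85, of which *Irx2* and *Irx3* encode Iroquois homeobox factors. For *Foxa2* they were *Irx5* at r = 0.89, *Prkcz* at r = 0.89 and *Prss8* at r = 0.89, among them a further Iroquois factor and a membrane serine protease of epithelia, and for *Foxa1* they were *Slc4a5* at r = 0.89, *Rasef* at r = 0.88 and *Fhdc1* at r = 0.85. For *Gata6* they included *Clic5* at r = 0.88 and *Nectin3* at r = 0.84, and *Clic5* is also an AT1 marker. For *Foxf1* they were *Nrarp* at r = 0.86, *Tmcc2* at r = 0.85 and *Cldn5* at r = 0.85, of which *Cldn5* encodes the claudin of endothelial tight junctions and *Nrarp* is a target of Notch signaling. For *Sox9* they were *Inhba* at r = 0.81, *Ackr1* at r = 0.75 and *Has2* at r = 0.74, which encode a subunit of activin A, a chemokine receptor of venous endothelium and a hyaluronan synthase. The values were lower for *Tbx2* (*Dmwd* at r = 0.78, *Adamtsl5* at r = 0.67 and *Chst8* at r = 0.65), *Tbx4* (*Ptk7* at r = 0.73, *Pip5k1c* at r = 0.72 and *Numbl* at r = 0.72), *Cebpa* (*Bri3* at r = 0.67, *Rac3* at r = 0.67 and *Tst* at r = 0.65) and *Sox4* (*Cbx1* at r = 0.64, *Foxp1* at r = 0.60 and *Cx3cr1* at r = 0.60).

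Other transcription factors of lung epithelium were mostly lower on day 14. Of 22 such genes, 16 were lower and 2 higher on day 14, where 29.9% of all genes were lower and 32.4% higher, and the median log2 fold change was -0.56 against 0.01 over all genes. This list and the lists below were chosen with earlier results of these data known, so their counts are a description. The largest falls were those of *Ehf* (log2 fold change -1.06 ± 0.14, adjusted p = 1.54e-09) and *Elf5* (-1.0005 ± 0.13, adjusted p = 1.48e-09), which encode ETS factors of epithelia. The exceptions were *Etv4* (3.95 ± 0.46, adjusted p = 4.34e-11), an ETS factor induced by FGF signaling, and *Id2* (0.42 ± 0.08, adjusted p = 8.27e-06), an inhibitor of helix-loop-helix factors and a marker of distal lung progenitors. On day 42, 1 of the 22 was lower, *Foxj1* (-0.51 ± 0.19, adjusted p = 0.0449), the master factor of motile cilia, with 11% of all genes lower and 13.7% higher. At that time *Trp63* (1.23 ± 0.37, adjusted p = 0.0111), a factor of basal cells, and *Id2* (0.49 ± 0.09, adjusted p = 4.14e-05) were higher.

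Of 20 other factors of mesenchyme and endothelium, 8 were lower and 4 higher on day 14, and 6 were lower and 2 higher on day 42. Over all genes tested, 62.4% were called on day 14 (29.9% lower) and 24.7% on day 42 (11% lower), and the share called in this list on day 14 was no higher than that. *Tcf21*, a factor of lipofibroblasts, had the largest fall on both days (log2 fold change -0.98 ± 0.18, adjusted p = 3.09e-06 on day 14 and -0.61 ± 0.21, adjusted p = 0.0254 on day 42), followed by *Epas1* (-0.74 ± 0.14, adjusted p = 4.19e-06 and -0.51 ± 0.16, adjusted p = 0.0162), which encodes the hypoxia factor HIF-2α. *Gli3* (0.62 ± 0.17, adjusted p = 9.16e-04) and *Gli1* (0.55 ± 0.15, adjusted p = 8.79e-04), effectors of Hedgehog signaling, were higher on day 14, and on day 42 *Gli1* (0.54 ± 0.17, adjusted p = 0.0127) and *Sox17* (0.50 ± 0.12, adjusted p = 8.52e-04), an endothelial factor, were higher. Of 20 further genes of the members' families 15 were tested, of which, beside the same shares of all genes, 8 were lower and 3 higher on day 14 and 1 lower and 1 higher on day 42. *Sox11* (-1.61 ± 0.34, adjusted p = 3.55e-05) and *Gata3* (-1.17 ± 0.19, adjusted p = 2.97e-07) fell most on day 14, and *Tbx18* (1.07 ± 0.39, adjusted p = 0.0136) and *Cebpb* (0.59 ± 0.20, adjusted p = 0.00799) rose most. On day 42, *Sox5* (-0.35 ± 0.11, adjusted p = 0.0163) was lower and *Sox12* (0.30 ± 0.10, adjusted p = 0.026) higher.

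Of 14 genes for signals that act around these factors in lung development, 8 were lower and 2 higher on day 14 (all genes, 29.9% and 32.4%), and 4 lower and 2 higher on day 42 (all genes, 11% and 13.7%). The counts are a description of the list. *Fgfr2*, the receptor of FGF7 and FGF10 in lung epithelium, fell most on day 14 (log2 fold change -1.29 ± 0.14, adjusted p = 2.40e-12), followed by *Wnt2b* (-0.88 ± 0.28, adjusted p = 0.00559), a ligand of the early lung field. The ligand genes *Wnt7b* (1.54 ± 0.16, adjusted p = 6.66e-13), expressed in epithelium, and *Wnt5a* (1.02 ± 0.10, adjusted p = 1.49e-13), expressed in mesenchyme, rose most. On day 42, *Wnt2b* (-1.18 ± 0.34, adjusted p = 0.00779) and *Wnt2* (-0.83 ± 0.19, adjusted p = 5.73e-04), a mesenchymal ligand, were lower, and *Wnt7b* (0.92 ± 0.18, adjusted p = 9.00e-05) and *Shh* (0.60 ± 0.16, adjusted p = 0.00438), the Hedgehog ligand of lung epithelium, were higher. Other Hedgehog genes of the list went the other way. *Ptch1* was lower on day 14 (-0.49 ± 0.12, adjusted p = 1.89e-04) and not called on day 42. *Hhip* was lower on day 42 (-0.77 ± 0.24, adjusted p = 0.0136) and not called on day 14.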

How the data were processed

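Per the labels and the methods of the study, poly(A) libraries made with a strand-preserving kit gave single-end reads (Illumina NextSeq), and the authors aligned the reads with STAR (version 2.7.0f) to GRCm38 with the Ensembl 96 annotation. The deposited table holds raw read counts for 55536 genes in 75 libraries, and the counting program is not given in the sources used here. All gene identifiers were matched to GENCODE M21, the same gene set, for symbols, positions and exon lengths. Total counts were 9240291 to 14665247 per library (median 10677163), and the number of mice limits the precision. Each label gives 1 mouse per library, and none of the 375 pairs of libraries within groups agreed within sampling noise (lowest chi-square per degree of freedom, 3.88).

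Counts were fitted in R (version 4.3.3) with edgeR (version 4.0.16): genes were kept by filterByExpr (16221 genes), scaled by TMM and tested with the quasi-likelihood F test over all 7 groups without a block. P-values were adjusted by the method of Benjamini and Hochberg over all genes tested, with a threshold of 0.05. The SE of a log2 fold change was its absolute value divided by the square root of the F statistic. Confidence intervals were derived from this SE with a normal quantile. Ratios within libraries were differences of log2 CPM with a prior count of 2, tested by two-sided permutation of mice (100000 resamples, exact for day 42). Motifs were searched as exact letters in RefSeq promoter windows. The fit, the permutation test and the correlations were tested on simulated data. Alternatives were other scalings, DESeq2 (version 1.42.0), other filters, a fold threshold, only the groups compared, a replicate block and leaving out 2 libraries with muscle markers. The 3 further ratios of *Foxa1* and *Foxa2* to cell markers were added after the data were seen.

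The members and gene lists were chosen with earlier results of these data known. All members are named, and for each member the 3 genes with the highest correlation of deviations from group means among genes with a mean log2 CPM above 1. For *Gata6*, 1 of the 3 is not reported here. Of the lists of partner factors, family genes and signals, up to 2 called genes with the largest rise and 2 with the largest fall on days 14 and 42 are named. *Ptch1* and *Hhip* are named in addition. The lists of markers were counted, and the heart, skeletal muscle, thymus and brown fat lists served to find libraries above 5 times the median.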

Additional observations from a re-analysis of the deposited data

Results flagged for a closer look

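Between day 14 and day 42, the changes of 8 members against CTRL differed from each other in a direct test of these days (edgeR's quasi-likelihood F test, adjusted over all genes tested). The log2 difference of day 42 minus day 14 was 0.82 for *Nkx2-1* (adjusted p = 1.10e-06), 0.72 for *Foxa1* (adjusted p = 6.29e-05), 0.55 for *Foxa2* (adjusted p = 5.94e-04) and 0.38 for *Cebpa* (adjusted p = 0.0015). For *Foxf1* and *Gata6* it was 0.47 (adjusted p = 0.0183) and 0.28 (adjusted p = 0.026). *Sox9* and *Tbx4* had negative differences, -1.79 (adjusted p = 0.00626) and -0.34 (adjusted p = 9.10e-04). The groups of day 14 and day 42 hold 12 and 7 mice. No single mouse stood apart from its group in the 30 groups of members and days with up to 10 mice that were examined by Dixon's test.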

How the results depend on the processing

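The number of members called moved by over 1.5 times in few settings. On day 7 it was 7 instead of 4 both without the 2 libraries with muscle markers and with only the groups compared. With an absolute log2 fold change of at least 0.5 in addition, days 14, 21, 28, 35 and 42 had 5, 4, 3, 2 and 1 calls, day 42 against day 14 had 4 and day 14 against day 7 had 1. With only the groups compared it was also 1 for day 14 against day 7, and with DESeq2 it was 1 instead of 0 for day 21 against day 14. The shares of all genes called in these settings are not given here, so the counts describe the members alone. Of the log2 fold changes of single members under the alternatives, 494 kept their direction and side of the threshold, 24 passed it in addition, 6 no longer did and 4 changed sign. Those 4 were not called in any setting: *Tbx4* on day 14 with upper quartile factors (-0.0055), and *Cebpa* on day 28 with at least 10 counts in every mouse (-0.0017), with the replicate block (-0.022) and without the 2 libraries (-0.067). The calls lost were those of *Tbx4* on day 28 without a filter (adjusted p = 0.0754), without the 2 libraries (adjusted p = 0.0695) and with only the groups compared (adjusted p = 0.0618), and without a filter also *Foxa2* (adjusted p = 0.0554) and *Gata6* (adjusted p = 0.0981) on day 21 and *Sox9* on day 7 (adjusted p = 0.0833). The cause was not tested. With at least 10 counts in every mouse *Sox9* could not be fitted. Directions and calls of the 42 ratio tests stayed under the alternatives run for them, which were prior counts of 0.5 and 5, library size only and leaving out the 2 libraries. Scaling by library size barely moves a ratio within a library, and the 2 libraries belong to day 28 alone, so these 2 settings test little. The 3 further ratios of *Foxa1* and *Foxa2* to cell markers were not run under alternatives.

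Groups share replicate numbers, but nothing in the labels ties mice of the same number, and 63 of 204 such pairs correlated above 0.1 (median 0.0057, and 0.0018 for different numbers), with 8 mice correlating best with their own number. With the replicate block, 4 calls of 3 members were gained, *Foxa2* (adjusted p = 0.0354) and *Tbx2* (adjusted p = 0.0380) on day 7 and *Foxa2* (adjusted p = 0.0378) and *Gata6* (adjusted p = 0.0419) on day 28. Few reads limit *Sox9*.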
